A study of Cricetulus griseus with 9 samples.

Results

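Genes of NF-kB signalling and of the recruitment and growth of macrophages were followed across 9 RNA-sequencing libraries of MI5-4 cells, a Chinese hamster ovary (CHO) line. They were 8 genes chosen by name: the NF-kB subunit genes Rela and Nfkb2, the feedback inhibitor Tnfaip3, the macrophage growth factor Csf1, the adhesion receptor Vcam1 and the chemokines Cxcl1, Ccl2 and Ccl7. All 8 of the 8 named genes were among the 6753 genes of the deposited table. They were named with their values in these libraries already known, so their levels and differences are given as descriptions. Counts of members past a threshold stand beside the shares of all genes, and nothing is read from them. The libraries formed 3 groups of 3. The first holds MI5-4 cells labelled as expressing wild-type hexokinase 2 (WTHK2). The second holds EV cells treated with sodium lactate at 10 mM over 24 h (LAC), and the third holds EV cells alone (EV). The labels call EV cells hexokinase null, a background that the LAC and EV libraries share, and all cells grew in MEM alpha with glucose, fetal bovine serum and penicillin-streptomycin. What drives HK2 in the WTHK2 cells, and whether a group is 1 clone or a replicate a separate culture, are not in the labels. The p-values therefore set a difference between groups against the spread of libraries within groups, and that spread may be technical.

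NF-kB is a family of dimeric transcription factors that wait in the cytoplasm until inflammatory signals remove or process their inhibitors. RelA with p50 carries the classical arm of the pathway, and p52, made from the Nfkb2 product p100, carries the alternative arm. Both arms turn on chemokines, adhesion receptors, growth factors and their own inhibitors, and fibroblast-like cells use this programme to call in and feed myeloid cells. The study addressed gene expression linked to hexokinase 2 and lactate, by way of lactylation of lysine 18 of histone H3, according to its title.

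Values are normalized CPM, which are read counts scaled by the authors to the size of each library. Effective library sizes ran from 18050959 to 26238659 reads. The lowest gene mean of the table was 20.4 CPM, so genes below this level were not analysed here. Every one of the 8 genes was well covered: the fewest reads on this scale were 513, for Ccl7. Of 10 markers of a fibroblast-like CHO cell 7 were listed: Vim, Col3a1, Sparc, LGALS1, S100a6, Fn1 and Actb. Col1a1, Col1a2 and Tagln2 were not. The 7 summed to 14698 to 14979 CPM in the libraries labelled WTHK2, 13186 to 13582 in LAC and 12647 to 12805 in EV. Of 17 markers of macrophages and other leukocytes 0 were listed, and the same held for 8 endothelial and 7 epithelial markers. Hk2, the gene of hexokinase 2, had 66.6, 65.3 and 63.9 CPM in the libraries labelled WTHK2, 64.7, 70.4 and 68.5 CPM in LAC and 68.4, 68.7 and 64.9 CPM in EV. The groups overlapped, and the log2 difference of the libraries labelled WTHK2 from EV was -0.044 (SE 0.054, limma adjusted p = 0.522). Hk2 thus did not follow the label, on which alone all directions for that group rest. Whether reads of the HK2 named in the label count toward hamster Hk2 is not known, so these values cannot check the label. Hk1, another hexokinase gene, averaged 285 ± 7.63 CPM in the libraries labelled WTHK2, 302 ± 2.22 CPM in LAC and 324 ± 7.09 CPM in EV. Its transcripts were thus present in cells that the labels call hexokinase null.

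The 8 genes were set in 2 blocks by different criteria, both of which Nfkb2 met. Tnfaip3, Csf1, Vcam1, Rela and Nfkb2 were lowest in the libraries labelled WTHK2, with log2 differences from EV of -0.91 to -0.30. Cxcl1, Ccl2 and Ccl7 were highest in LAC, with log2 differences from EV of 0.48 to 0.63. Nfkb2 was also highest in LAC, with a log2 difference from EV of 0.057. All 8 were lower in the libraries labelled WTHK2 than in LAC. Fewer cells expressing a gene and less RNA per cell cannot be told apart in these bulk libraries. Differences are of log2(CPM + 1), from one limma fit of the 9 libraries.

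**Figure D1:**
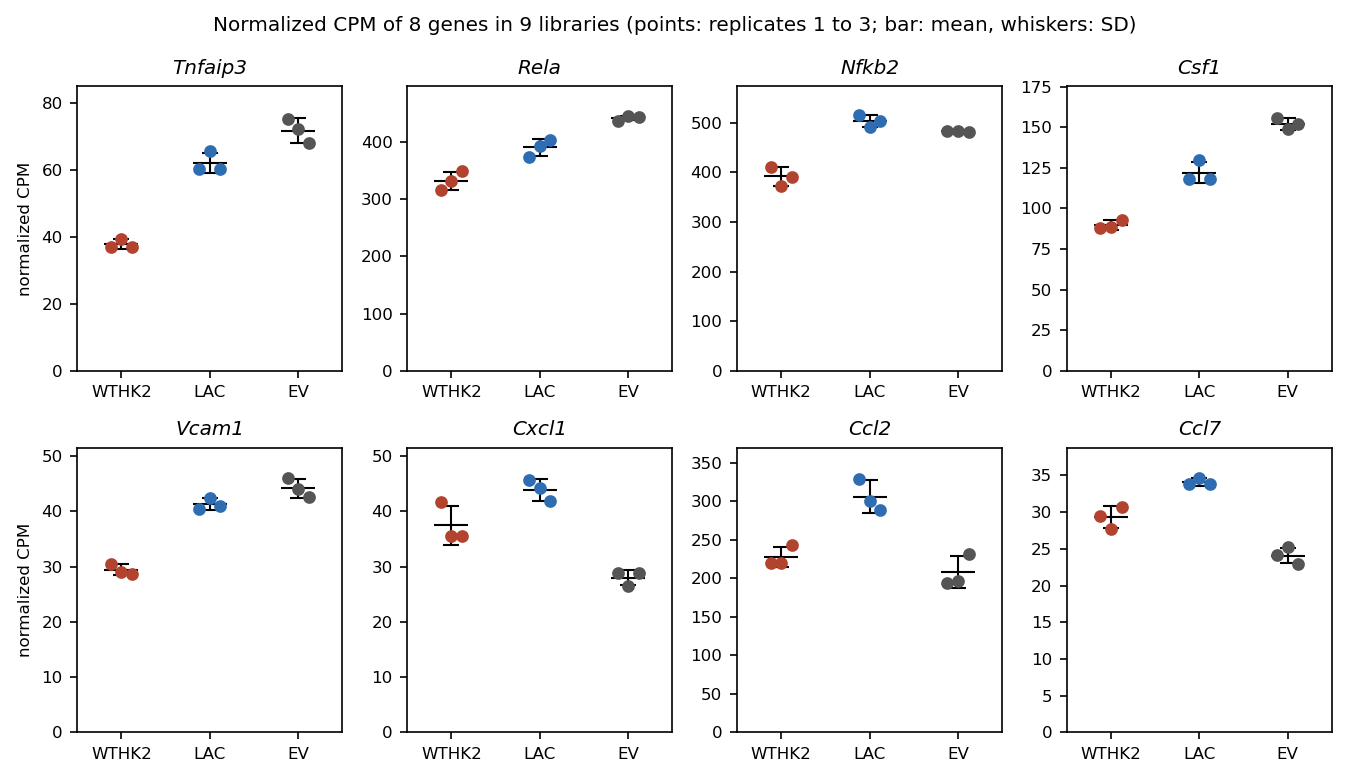
Normalized CPM (vertical axes, starting at 0) of the 8 genes in the libraries labelled WTHK2, in LAC and in EV; points are libraries, bars are group means and whiskers are SD (n = 3 each). Tnfaip3, Rela, Nfkb2, Csf1 and Vcam1 are lowest in the libraries labelled WTHK2, and Cxcl1, Ccl2, Ccl7 and also Nfkb2 are highest in LAC.

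Rela codes for the subunit with the main activating domain of classical NF-kB. It had 316, 332 and 349 CPM in the libraries labelled WTHK2, 374, 393 and 404 CPM in LAC and 437, 445 and 444 CPM in EV. The 3 groups did not overlap and stood in the order EV, LAC, WTHK2. Its mean was 332 ± 16.3 CPM in the libraries labelled WTHK2, 391 ± 15 CPM in LAC and 442 ± 4.23 CPM in EV (SD, n = 3 each). The log2 difference from EV was -0.41 (SE 0.039) in the libraries labelled WTHK2 and -0.18 (SE 0.039) in LAC.

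Nfkb2 codes for p100, which both holds RelB in the cytoplasm and is the precursor of p52. It had 412, 373 and 391 CPM in the libraries labelled WTHK2, 515, 491 and 503 CPM in LAC and 483, 484 and 482 CPM in EV. Unlike Rela, it stood highest in LAC, and the groups did not overlap. The distance between LAC and EV was small, with a log2 difference of 0.057 (SE 0.037), against -0.30 (SE 0.037) in the libraries labelled WTHK2 from EV. The spread within EV was 0.814 CPM (SD, n = 3), far below that of the libraries labelled WTHK2 at 19.5 CPM and of LAC at 12 CPM. Between the libraries labelled WTHK2 and LAC, Nfkb2 differed by -0.36 (SE 0.037), and only 1.82% of all genes differed by more there.

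Tnfaip3 codes for A20, a ubiquitin-editing enzyme that NF-kB itself induces and that switches off signalling at TNF and Toll-like receptors. It had 37.0, 39.4 and 36.9 CPM in the libraries labelled WTHK2, 60.2, 65.5 and 60.3 CPM in LAC and 75.2, 72.1 and 67.9 CPM in EV. The libraries labelled WTHK2 lay far below both other groups, and LAC lay just below EV without overlap. Tnfaip3 averaged 37.8 ± 1.45 CPM in the libraries labelled WTHK2, 62.0 ± 3.05 CPM in LAC and 71.7 ± 3.66 CPM in EV (SD, n = 3 each). Its log2 difference from EV of -0.91 (SE 0.060) in the libraries labelled WTHK2 was the largest in size among the 8 genes, and 0.104% of all 6753 genes differed by more. In LAC the difference from EV was -0.21 (SE 0.060), and 31.6% of all genes differed by more in that comparison.

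Csf1 codes for macrophage colony-stimulating factor, the main growth and survival factor of macrophages. It had 87.8, 88.4 and 93.1 CPM in the libraries labelled WTHK2, 118, 129.6 and 118 CPM in LAC and 156, 149 and 152 CPM in EV. LAC lay between the other groups and overlapped neither. The averages were 89.8 ± 2.92 CPM in the libraries labelled WTHK2, 122 ± 6.62 CPM in LAC and 152 ± 3.68 CPM in EV (SD, n = 3 each). The log2 difference from EV was -0.75 (SE 0.048) in the libraries labelled WTHK2, where 0.341% of all genes differed by more, and -0.32 (SE 0.048) in LAC.

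Vcam1 codes for an adhesion receptor that binds the leukocyte integrin VLA-4 and is a classical NF-kB target in endothelium. It had 30.5, 29.0 and 28.6 CPM in the libraries labelled WTHK2, 40.5, 42.5 and 40.9 CPM in LAC and 46.0, 44.0 and 42.6 CPM in EV. LAC and EV did not overlap, but the highest LAC library and the lowest EV library stood next to each other, with group means of 29.4 ± 0.996 CPM in the libraries labelled WTHK2, 41.3 ± 1.07 CPM in LAC and 44.2 ± 1.70 CPM in EV (SD, n = 3 each). The log2 difference from EV was -0.57 (SE 0.065) in the libraries labelled WTHK2 and -0.095 (SE 0.065) in LAC. With Nfkb2, Vcam1 was thus one of the members for which LAC stood near EV while the libraries labelled WTHK2 stood apart.

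Cxcl1 codes for a CXC chemokine that draws neutrophils through the receptor CXCR2. It had 41.6, 35.5 and 35.5 CPM in the libraries labelled WTHK2, 45.7, 44.2 and 41.8 CPM in LAC and 28.9, 26.5 and 28.8 CPM in EV. All 6 libraries labelled WTHK2 or LAC lay above the 3 EV libraries, and the first replicate labelled WTHK2 lay just below the lowest LAC library. Mean levels were 37.5 ± 3.53 CPM in the libraries labelled WTHK2, 43.9 ± 1.98 CPM in LAC and 28.0 ± 1.34 CPM in EV (SD, n = 3 each). The log2 difference from EV was 0.40 (SE 0.074) in the libraries labelled WTHK2 and 0.63 (SE 0.074) in LAC, the largest positive difference among the 8 genes. Without the first replicate labelled WTHK2 the difference from EV in that group was 0.33.

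Ccl2 codes for MCP-1, a CC chemokine that draws monocytes through the receptor CCR2. It had 220.4, 220.1 and 243 CPM in the libraries labelled WTHK2, 329, 299.7 and 288 CPM in LAC and 194, 197 and 232 CPM in EV. LAC stood above both other groups, while the third EV library lay above 2 of the 3 libraries labelled WTHK2. On average Ccl2 stood at 228 ± 12.9 CPM in the libraries labelled WTHK2, 306 ± 20.9 CPM in LAC and 208 ± 20.8 CPM in EV (SD, n = 3 each). The log2 difference from EV was 0.56 (SE 0.059) in LAC and 0.14 (SE 0.059) in the libraries labelled WTHK2. The smaller value rested on single libraries: it was 0.22 without EV replicate 3, 0.089 without EV replicate 1 and 0.089 without WTHK2 replicate 3. Ccl2 also had the widest spread of the 8 genes, with a within-group SD of 0.109 on the log2 scale, and 86.0% of all genes had a smaller one.

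Ccl7 codes for MCP-3, a CC chemokine of the same family that also acts through CCR2. It had 29.5, 27.7 and 30.7 CPM in the libraries labelled WTHK2, 33.9, 34.7 and 33.8 CPM in LAC and 24.2, 25.2 and 23.0 CPM in EV. The 3 groups did not overlap and stood in the order LAC, WTHK2, EV, at 29.3 ± 1.48 CPM in the libraries labelled WTHK2, 34.1 ± 0.523 CPM in LAC and 24.1 ± 1.07 CPM in EV (SD, n = 3 each). The log2 difference from EV was 0.27 (SE 0.072) in the libraries labelled WTHK2 and 0.48 (SE 0.072) in LAC. Chemokine genes of this family resemble each other, and how the authors assigned reads that could come from more than one of them is not stated in the labels.

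**Figure D2:**
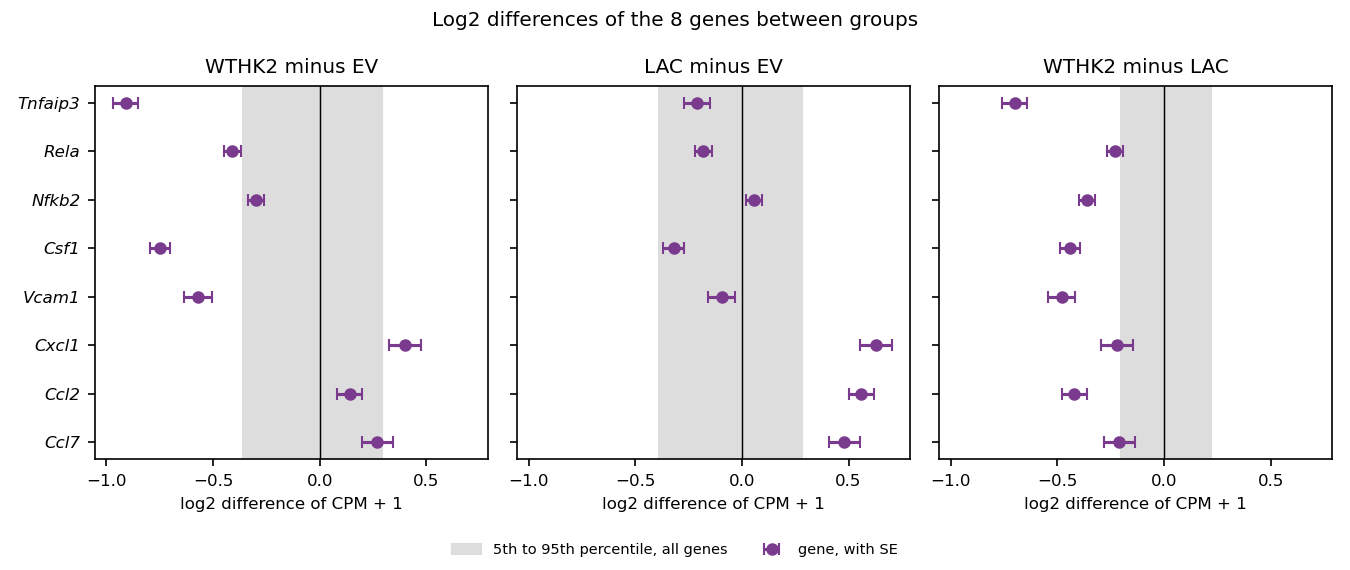
Log2 differences of CPM + 1 (horizontal axes) with SE for the 8 genes in 3 comparisons; the grey band spans the 5th to 95th percentile of all 6753 genes. In WTHK2 minus EV the points run from -0.91 to 0.40, in LAC minus EV from -0.32 to 0.63, and in WTHK2 minus LAC all 8 lie below 0.

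The counts of members stand beside shares of the whole table as follows, and nothing is read from them, since the genes were named with these comparisons known. Between the libraries labelled WTHK2 and EV, 7 of 8 members passed an adjusted p of 0.05 in the limma fit, 2 higher and 5 lower, where 46.4% of all genes passed (21% higher and 25.4% lower). The groups did not overlap for the same number, 7 of 8, against 57.1% of all genes. Between LAC and EV, 6 of 8 passed, 3 higher and 3 lower, beside 49.5% of all genes (22.4% higher and 27.1% lower), and 8 of 8 did not overlap, beside 57.8%. Between the libraries labelled WTHK2 and LAC, 8 of 8 passed, all lower, beside 16.1% of all genes (8.37% higher and 7.76% lower), and 8 of 8 did not overlap, beside 29% of all genes. In that last comparison 1089 genes passed in all, 662 without WTHK2 replicate 3 and 701 without LAC replicate 3. The comparisons of WTHK2 and of LAC with EV share the EV libraries. Some of these calls turned on the setting: in WTHK2 against LAC, Cxcl1 passed in 12 and Ccl7 in 8 of 20 alternatives, in WTHK2 against EV Ccl2 passed in 6 of 21, and Tnfaip3 in LAC against EV lost its call without EV replicate 1. After rescaling to a common median, genes higher made up 57.3% of those past the threshold against EV in the libraries labelled WTHK2, and 45.3% as deposited. In LAC these shares were 58.6% rescaled and 45.3% as deposited. None of the differences of the 8 genes in the 3 comparisons changed sign under any of the alternatives run, though several of these cannot change a difference.

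The median log2 difference of the 8 genes was -0.36 in the libraries labelled WTHK2 against EV, beside -0.0082 for all genes. In LAC against EV it was -0.019, beside -0.0035 for all genes. That small median hides members that lay on both sides of 0. In the libraries labelled WTHK2 against LAC the median was -0.39, beside 0.0041 for all genes.

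Some comparisons do not depend on how a library is scaled, because 2 genes of the same library are divided by each other. CPM is not corrected for transcript length, so such a ratio is read only between libraries, not as one gene being more abundant than the other. The ratio of Ccl2 to Csf1 was 2.51, 2.49 and 2.60 in the libraries labelled WTHK2, 2.79, 2.31 and 2.44 in LAC and 1.24, 1.33 and 1.53 in EV. The libraries labelled WTHK2 and LAC overlapped, and both lay above EV. The monocyte chemokine thus stood higher relative to the macrophage growth factor in both conditions, in the libraries labelled WTHK2 with Csf1 lower and in LAC with Ccl2 higher and Csf1 lower.

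The ratio of Tnfaip3 to Rela was 0.117, 0.119 and 0.106 in the libraries labelled WTHK2, 0.161, 0.167 and 0.149 in LAC and 0.172, 0.162 and 0.153 in EV. Here LAC and EV overlapped, and only the libraries labelled WTHK2 stood lower. The ratio of Csf1 to Rela was 0.278, 0.266 and 0.267 in the libraries labelled WTHK2, 0.315, 0.329 and 0.293 in LAC and 0.357, 0.334 and 0.342 in EV, with no overlap between groups.

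The ratio of the 2 subunit genes, Nfkb2 to Rela, was 1.30, 1.12 and 1.12 in the libraries labelled WTHK2, 1.38, 1.25 and 1.25 in LAC and 1.11, 1.09 and 1.09 in EV. It was highest in the first replicate of WTHK2 and of LAC, where the libraries labelled WTHK2 reached into the range of LAC. The ratio of Ccl7 to Ccl2 was 0.134, 0.126 and 0.127 in the libraries labelled WTHK2, 0.103, 0.116 and 0.117 in LAC and 0.125, 0.128 and 0.0995 in EV. The pair of CCR2 ligands kept ratios in EV that spanned those of LAC.

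**Figure D3:**
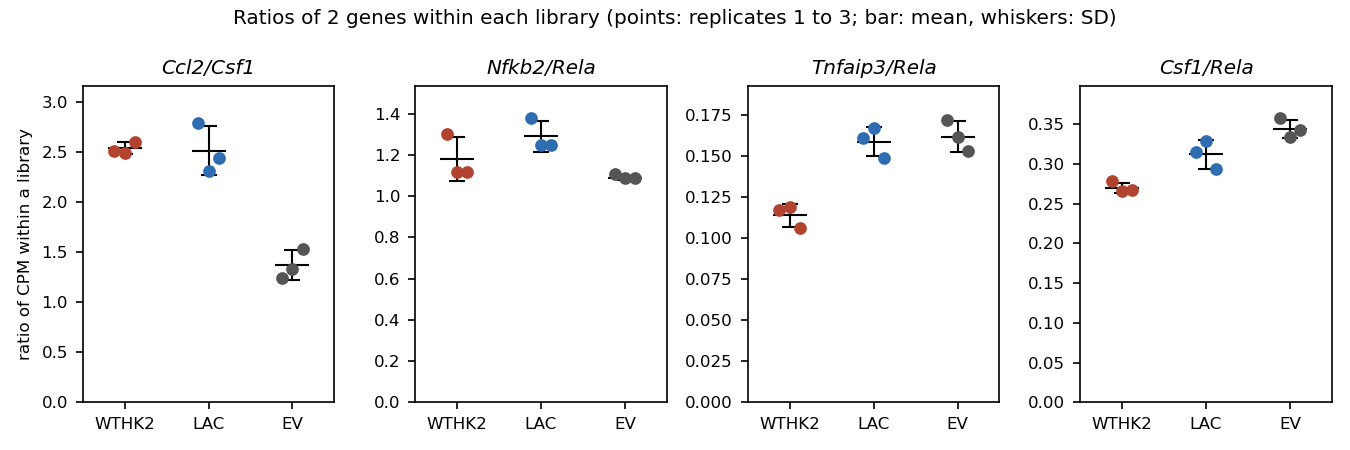
Ratios of CPM of 2 genes within each library (vertical axes, starting at 0) for the libraries labelled WTHK2, LAC and EV; points are libraries, bars are means and whiskers are SD (n = 3 each). Ccl2/Csf1 is 2.31 to 2.79 in the libraries labelled WTHK2 or LAC and 1.24 to 1.53 in EV, and Tnfaip3/Rela is 0.106 to 0.119 in the libraries labelled WTHK2 against 0.153 to 0.172 in EV.

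First replicates of WTHK2 and of LAC differed from the others in a further way. Mitochondrially encoded transcripts, of which 4 were listed, exceeded their average in EV by 0.73, 0.45 and 0.40 (median, log2) in the libraries labelled WTHK2 and by 0.80, 0.52 and 0.45 in LAC. In the same first replicates Rela was the lowest and Cxcl1 the highest of its group. That was also so in EV replicate 1, at 437 and 28.9 CPM, where those transcripts stood at 0.031. Not every member followed: Ccl2 in WTHK2 replicate 1, at 220.4 CPM, was neither lowest nor highest of its group. The part of those transcripts in these values was not tested. Without WTHK2 replicate 1 and LAC replicate 1 the log2 differences from EV were -0.38 for Rela and 0.33 for Cxcl1 in the libraries labelled WTHK2. In LAC they were -0.15 and 0.60. Genes coding for very long proteins, a list written after these data were seen, had a median log2 difference from EV of -0.25 in the libraries labelled WTHK2 and -0.30 in LAC, with 32 of 37 past the threshold and lower in the libraries labelled WTHK2 and 35 of 37 in LAC. None of the 8 genes belongs to that list. Tnfaip3, Csf1, Vcam1, Rela and Nfkb2 all lay below this median in the libraries labelled WTHK2, while in LAC Csf1 alone did, at -0.32.

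The other genes of the pathway came from 8 lists with 206 names, of which 87 were in the table. Against EV, 15 of the 87 rose and 24 fell in the libraries labelled WTHK2 (44.8% past the threshold, near the 46.4% of all genes), with a median log2 difference of -0.049. In LAC 23 rose and 25 fell (55.2%, beside 49.5% of all genes), with a median of -0.031. After rescaling to a common median the split in LAC turned to 28 higher and 21 lower with a median of 0.010, and with quantile normalization to 26 and 22 with a median of -0.0089. The shares of all genes to set beside the counts of each list are 21% higher and 25.4% lower in the libraries labelled WTHK2, and 22.4% higher and 27.1% lower in LAC. Adjusted p-values below are from the limma fit with Benjamini-Hochberg adjustment over all 6753 genes, and no list was tested as a set.

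Among subunits and inhibitors, Nfkb1, the gene of p105 and p50, fell in both conditions. It stood at 111 ± 0.697 CPM in the libraries labelled WTHK2 and 113 ± 8.59 CPM in LAC, against 135 ± 3.20 CPM in EV, log2 differences of -0.28 (adjusted p = 0.000167) and -0.25 (adjusted p = 0.000415). Relb, the partner of p52, fell in the libraries labelled WTHK2, with 34.0 ± 1.13 CPM, against 40.5 ± 0.0278 CPM in EV (adjusted p = 0.00313). In LAC Relb stood at 40.7 ± 1.14 CPM. Nfkbib, which codes for the inhibitor IkB-beta, rose by 0.33 in LAC (adjusted p = 0.000286) and by 0.19 in the libraries labelled WTHK2 (adjusted p = 0.0187), the second of which was lost without WTHK2 replicate 1 (adjusted p = 0.0717) or EV replicate 1 (adjusted p = 0.0789). Commd1, which promotes the removal of RelA, rose by 0.21 in both conditions (adjusted p = 0.0307 in the libraries labelled WTHK2 and 0.0289 in LAC), but each of these calls was lost in 5 of 9 fits with 1 library left out, every EV library among them, at adjusted p from 0.0568 to 0.136.

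In the feedback and deubiquitination list, to which Tnfaip3 belongs by role but was not counted, 6 of 10 genes fell in the libraries labelled WTHK2 and 6 in LAC, or 60% in each, beside 25.4% and 27.1% of all genes. The other 4 did not pass in either. The list median was -0.17 in the libraries labelled WTHK2 and -0.18 in LAC, and 5 fell in each after rescaling to a common median. Itch, a ubiquitin ligase that works with A20, was at -0.33 (adjusted p = 0.000195) in the libraries labelled WTHK2 and -0.38 (adjusted p = 5.84e-05) in LAC. Otud7b, a deubiquitinase of TRAF3, was at -0.40 (adjusted p = 0.000287) and -0.51 (adjusted p = 2.34e-05) in those comparisons. Cyld, which removes the ubiquitin chains that carry the signal, was at -0.32 (adjusted p = 0.000472) and -0.23 (adjusted p = 0.00645). Genes for very long proteins fell in the same comparisons, as given above, and their part in these falls was not tested.

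In the signalling list 6 of 24 genes fell in the libraries labelled WTHK2 (25.0%, beside 25.4% of all genes) and the other 18 did not pass. In LAC 2 rose (8.33%, beside 22.4% of all genes) and 6 fell (25.0%, beside 27.1%). Chuk, the kinase IKK-alpha of the alternative arm, fell to 55.3 ± 0.812 CPM in the libraries labelled WTHK2, against 69.1 ± 3.77 CPM in EV (log2 difference -0.31, adjusted p = 0.000148). Tab2, an adaptor of the kinase TAK1, was at -0.22 (adjusted p = 0.00209) in the libraries labelled WTHK2 and -0.35 (adjusted p = 2.3e-05) in LAC. Card10, a scaffold that links receptors to IKK, rose by 0.25 in LAC (adjusted p = 0.000657).

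Of 8 receptor genes 2 rose and 2 fell in the libraries labelled WTHK2 (25.0% each, beside 21% and 25.4% of all genes), and 2 rose and 3 fell in LAC (25.0% and 37.5%, beside 22.4% and 27.1%). After rescaling to a common median these were 3 up and 2 down in the libraries labelled WTHK2, and 2 up and 2 down in LAC. Tnfrsf1a, the main TNF receptor, rose, with 137, 126 and 129 CPM in the libraries labelled WTHK2, against 105, 93.3 and 102 CPM in EV (log2 difference 0.38, adjusted p = 2.36e-05). Tnfrsf21, a death receptor, rose by 0.35 in the same libraries (adjusted p = 1.6e-06). Il1r1, the IL-1 receptor, fell in LAC by 0.35 on the log2 scale (adjusted p = 0.000128).

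Of 19 other NF-kB targets, 4 rose and 4 fell in the libraries labelled WTHK2 (21.1% each, beside 21% and 25.4% of all genes). In LAC 8 rose (42.1%, beside 22.4% of all genes) and 1 fell (5.26%, beside 27.1%), or 12 and 1 after rescaling to a common median. Ier3, an early response gene, rose by 0.71 (adjusted p = 2.34e-08) and 0.52 (adjusted p = 1.52e-06) in those comparisons. Ccnd1, the G1 cyclin, fell in the libraries labelled WTHK2 (log2 difference -0.29, adjusted p = 2.32e-05), and Myc rose in LAC by 0.23 (adjusted p = 1.23e-05).

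Beside Cxcl1, Ccl2 and Ccl7, only Cxcl16 among the named chemokines was in the table, and its log2 differences from EV were 0.020 in the libraries labelled WTHK2 (adjusted p = 0.848) and 0.042 in LAC (adjusted p = 0.667). Cxcl16 was named for being that one chemokine, after its values were seen. Counted with it were receptors and chemokine-like genes, so that 2 of 4 genes rose (50%, beside 21% of all genes) and the other 2 did not pass in the libraries labelled WTHK2. Of the 2 that rose, Ackr3 passed narrowly (adjusted p = 0.0466) and lost its call in several alternatives, such as without EV replicate 1 (adjusted p = 0.148). In LAC 1 rose and 1 fell (25.0% each, beside 22.4% and 27.1%). Among other macrophage factors and cytokines, 4 of 9 rose and 2 fell in the libraries labelled WTHK2 (44.4% and 22.2%, beside 21% and 25.4% of all genes). In LAC 7 rose and 1 fell (77.8% and 11.1%, beside 22.4% and 27.1%). Mif, the macrophage migration inhibitory factor, had 406, 403 and 404 CPM in the libraries labelled WTHK2, 492, 452 and 487 CPM in LAC and 357, 359 and 367 CPM in EV. It rose by 0.16 (adjusted p = 0.00103) and 0.40 (adjusted p = 2.76e-07). Like the 3 chemokines it stood in the order LAC, WTHK2, EV by group means. Not every gene of that list did: Lgals3 stood highest in the libraries labelled WTHK2, at 320.4 CPM, and Kitl in EV, at 65.0 CPM. The adhesion list held 5 surface proteins beside Vcam1 and Ezr, Msn and Rdx, which link such proteins to the actin cytoskeleton. In the libraries labelled WTHK2 1 of 8 rose and 2 fell (12.5% and 25.0%, beside 21% and 25.4% of all genes), and in LAC 1 rose and 6 fell (12.5% and 75.0%, beside 22.4% and 27.1%). The 1 that rose was the linker Ezr in both, at 0.18 in the libraries labelled WTHK2 (adjusted p = 0.000179) and 0.13 in LAC (adjusted p = 0.00208). Those that fell in the libraries labelled WTHK2 were the linker Rdx, at -0.42 (adjusted p = 0.000239), and the hyaluronan receptor Cd44, at -0.22 (adjusted p = 0.00187). Itgb1, the beta chain of VLA-4, fell in LAC to 1089 ± 46.2 CPM, against 1233 ± 12.5 CPM in EV (log2 difference -0.18, adjusted p = 0.000394).

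**Figure D4:**
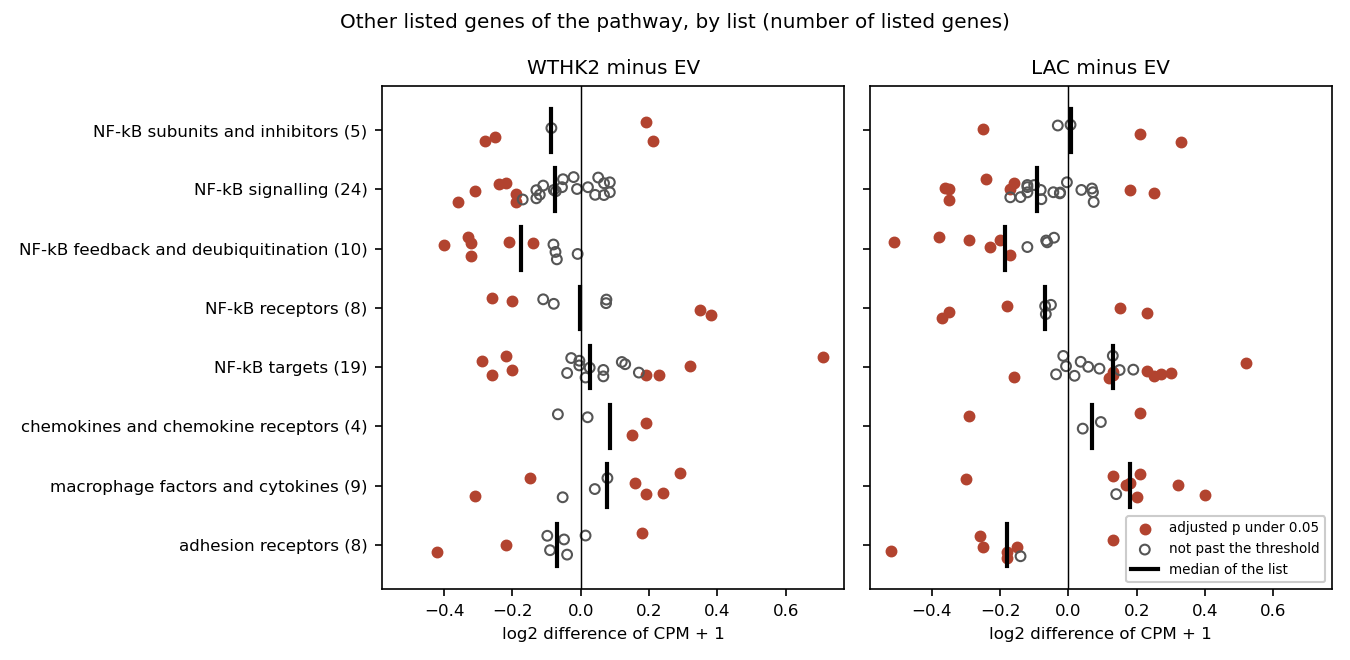
Log2 differences of CPM + 1 from EV (horizontal axes) for the 87 other listed genes in 8 lists, in the libraries labelled WTHK2 and in LAC; filled points passed an adjusted p of 0.05 in limma, open points did not, and bars are list medians. All 10 feedback and deubiquitination genes lie below 0 in both panels, while targets lie on both sides; the adhesion receptor list includes the linkers Ezr, Msn and Rdx.

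Between the libraries labelled WTHK2 and LAC, 12 of the 87 pathway genes were higher and 14 lower (29.9%, beside 16.1% of all genes). Without WTHK2 replicate 3 these counts were 5 and 10. Tnfrsf21 was higher by 0.40 (adjusted p = 6.6e-07) and Anxa1, an anti-inflammatory annexin, lower with a log2 difference of -0.28 (adjusted p = 6e-06). The 8 members were all lower in that comparison, with log2 differences from -0.70 for Tnfaip3 to -0.21 for Ccl7.

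Some members were close to each other in pattern and others were not. Likeness was measured as the root mean square difference of log2(CPM + 1) over the 9 libraries. Each gene was first centred on its own mean, so 0 is an identical pattern, in size as well as order. Genes whose groups stand in the same order are thus far apart where their differences are of unlike size. For Vcam1 the nearest member was Csf1, at 0.108. Csf1 and Tnfaip3 stood 0.119 apart, as did Rela and Nfkb2. Cxcl1 and Ccl7 stood 0.114 apart and Ccl2 and Ccl7 0.137, while Cxcl1 and Tnfaip3 were the least alike, at 0.551. The grouping by lowest and highest level was not a grouping by this distance throughout: Nfkb2 stood 0.26 from Tnfaip3, but 0.241 from Ccl2 and 0.248 from Ccl7. All of these were farther than Nfkb2 from a flat line, at 0.162, so none of them shows a likeness. Rela stood 0.238 from Tnfaip3, farther than from a flat line, at 0.174, though both stood in the order EV, LAC, WTHK2. Their differences were of unlike size, at -0.41 for Rela and -0.91 for Tnfaip3 in the libraries labelled WTHK2 against EV. Such distances are descriptions of 3 group levels in libraries that share their scaling and their EV controls.

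Genes outside the 8 followed some of these patterns more closely still. They were the nearest in a far larger pool, a table of 6753 genes, where each member had only the other members beside it. A closer match outside the 8 is therefore likely for any pattern, and nothing is read from it. Genes with symbols that start with LOC or end in Rik were left out of this search. The nearest to Tnfaip3 was Gpnmb, a lysosomal glycoprotein, at 0.0700, with means of 103 CPM in the libraries labelled WTHK2, 169 CPM in LAC and 196 CPM in EV; next came the sulfatase Sulf2 at 0.122. Rela was followed at 0.0277 by Hivep1, a zinc finger protein, and at 0.0310 by Fitm2, a protein of lipid droplet formation. For Nfkb2 they were Mta2 at 0.0350 and Slc1a3 at 0.0430, a chromatin remodelling subunit and a glutamate transporter. Csf1 was matched by Bmi1, a Polycomb protein, at 0.0605 and by the condensin subunit Ncapg2 at 0.0697, and Vcam1 by Septin3 at 0.0422 and Bahcc1 at 0.0557.

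For Cxcl1 the nearest genes were Hcfc1r1 at 0.0784 and Rasip1 at 0.0797, and for Ccl7 they were the chloride channel Clcn2 at 0.0555 and Atp5j, a subunit of ATP synthase, at 0.0778. Ccl2 was nearest to Nupr1, a stress-induced nuclear protein, at 0.0972. Nupr1 had a mean of 42.0 CPM in the libraries labelled WTHK2, 56.2 CPM in LAC and 42.0 CPM in EV. Sirt6, a histone deacylase, came next at 0.11. The distance to a flat line gives the scale: it was 0.162 for Nfkb2, 0.174 for Rela, 0.203 for Ccl7, 0.254 for Vcam1 and for Ccl2, 0.271 for Cxcl1, 0.312 for Csf1 and 0.392 for Tnfaip3.

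**Figure D5:**
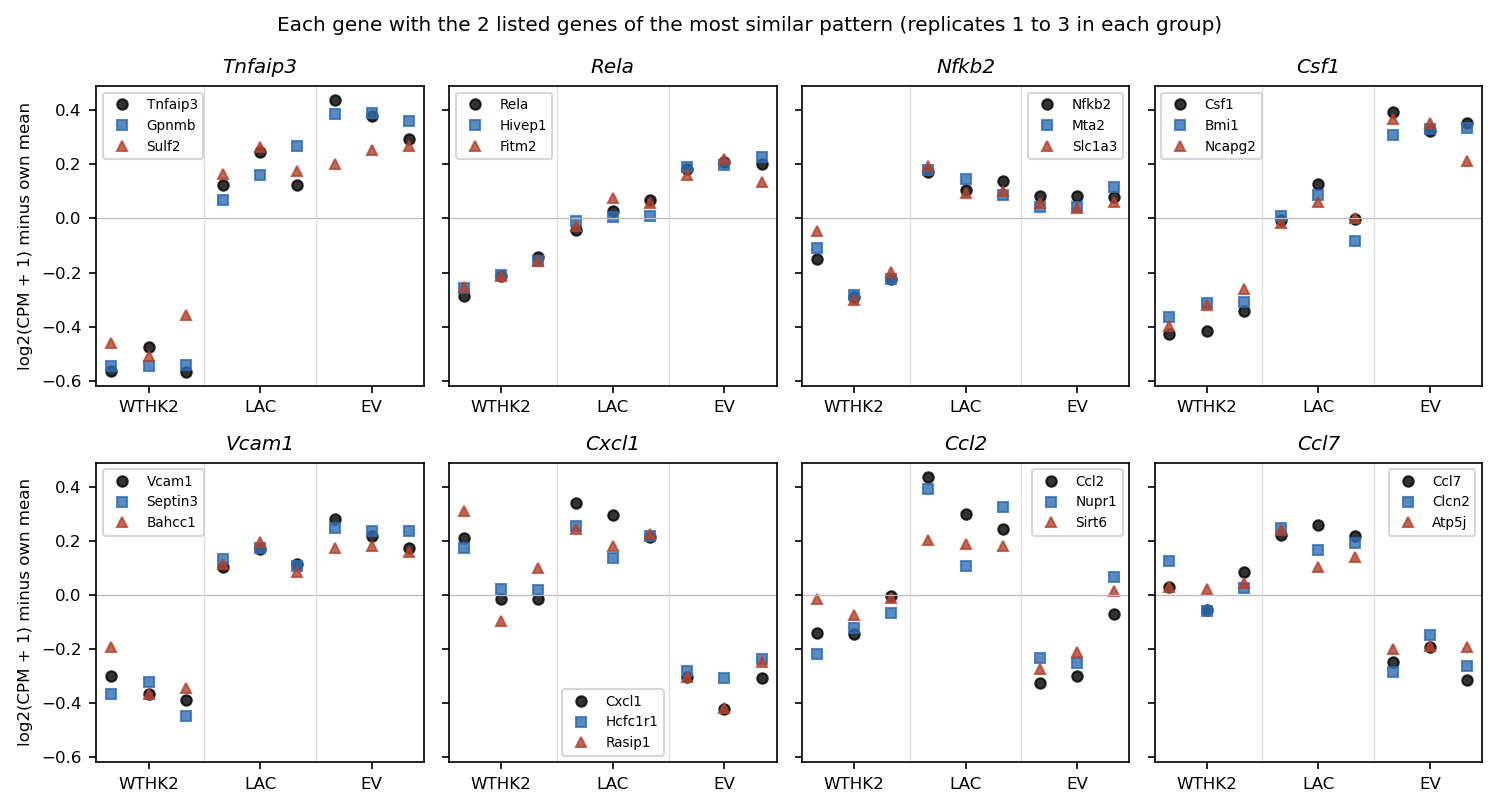
log2(CPM + 1) of each of the 8 genes and of its 2 nearest genes, each centred on its own mean over the 9 libraries (vertical axes, log2 units), with replicates 1 to 3 of WTHK2, LAC and EV side by side. Gpnmb lies 0.0700 from Tnfaip3 and Hivep1 0.0277 from Rela, while the nearest gene to Ccl2 lies at 0.0972.

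Gene order was taken by symbol from RefSeq's CriGri-PICRH-1.0 annotation, where 6140 of 6753 genes (90.9%) and 6 of the 8 members were found, all but Ccl2 and Ccl7. The 10 nearest listed genes of Tnfaip3, 5 on each side, had a median log2 difference from EV of -0.0067 in the libraries labelled WTHK2, where Tnfaip3 was at -0.91. The corresponding medians were 0.0049 around Csf1 and 0.048 around Rela. They were -0.17 around Vcam1 and -0.15 around Nfkb2, on the same side as these genes, which were at -0.57 and -0.30. Around Cxcl1 the median was -0.18 in the libraries labelled WTHK2 and -0.11 in LAC, against 0.40 and 0.63 for the gene itself.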

How the data were processed

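The authors deposited normalized CPM for 6753 genes in 9 libraries, per the table's own name. The submitters' processing notes name edgeR 3.8, featureCounts 2.0.1, STAR 2.7.0a, cutadapt 1.18 and FastQC 0.11.8, without roles; which build and annotation served is not given in the sources used here. Total RNA went into mRNA libraries, per the labels' protocols. Values of each library were whole multiples of a step (tolerance 0.01), which gave the effective library sizes of 18050959 to 26238659 reads. These recovered reads entered a single alternative, voom.

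Samples were grouped by title. On log2(CPM + 1), and after a filter at a mean of 1 CPM that removed 0 genes, a single limma fit (3.58.1, R 4.3.3) took in the 9 libraries, with trended variance and without covariates. Tests were two-sided, with Benjamini-Hochberg adjustment over all genes and a threshold of 0.05. The fit was tested on simulated data. Python 3.11.15 and matplotlib 3.10.9 made tables and figures.

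The 8 members, the lists and the rules were chosen with earlier results of these data known; the lists of very long proteins and mitochondrial transcripts were written after the data were seen. Named genes were the members and genes of the lists. For each list and comparison with EV these were up to 4 called genes with the smallest adjusted p, or 2 where none was called. Some of them are printed. The 2 such genes between WTHK2 and LAC were named as well. So were the 2 genes most like each member, with symbols that start with LOC or end in Rik left out. Alternatives were other pseudocounts (0.25 and 4), no filter or one at 50 CPM, 2 other scalings, a fit of 6 libraries, no variance trend, robust empirical Bayes, a replicate block, an adjusted p of 0.01, libraries left out and, added after the data were seen, voom on the recovered reads.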

Additional observations from a re-analysis of the deposited data

How the results depend on the processing

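Among the alternatives run, the log2 differences of the 8 genes kept their sign in all 3 comparisons, and 494 of 495 values moved by less than 1 within-group SD. The exception was Nfkb2 in LAC against EV, at 0.0065 with quantile normalization instead of 0.057. Many of the 495 values could not move. Either filter, the fit of 6 libraries, no variance trend, robust empirical Bayes and the replicate block leave a log2 difference as it is. So does leaving out a library of the group not compared. The filter at 50 CPM gave no values for Vcam1, Cxcl1 and Ccl7. Counts of called genes stayed within 1.5 times, except between WTHK2 and LAC. There, 1089 genes passed, 541 at an adjusted p of 0.01, and 662 to 1279 with 1 library left out, 662 without WTHK2 replicate 3 and 701 without LAC replicate 3. Of pathway genes 26 passed, 15 at an adjusted p of 0.01, and 15 to 26 with 1 library left out, 15 without WTHK2 replicate 3. Left-out ranges were 2445 to 3291 of all genes and 36 to 42 pathway genes for WTHK2 against EV, and 2650 to 3511 and 41 to 50 for LAC against EV. Of 1251 values of named pathway genes 27 lost their call, for Nfkbib, Commd1, TLR4 and Ackr3, and none changed sign.

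With the replicate number as a block, 3433, 3609 and 1414 genes, and 41, 53 and 26 pathway genes, passed for WTHK2 against EV, LAC against EV and WTHK2 against LAC, instead of 3131, 3341 and 1089 genes and 39, 48 and 26 pathway genes. The labels tie same-numbered libraries by number alone. Their deviations correlated at -0.0057 to 0.141, 0.0175 to 0.207 and 0.0733 to 0.437 in these comparisons. Pairs of unlike number correlated at -0.202 to 0.133, -0.2 to 0.185 and -0.335 to 0.186. Between WTHK2 and LAC all same-numbered pairs were thus positive, a structure that the main fit leaves out. Not every library correlated best with its own number. The planned edgeR and DESeq2 alternatives were not run. On the recovered reads voom called 3191, 3353 and 1097 genes in these comparisons. The depth sets no limit on the 8 genes, which had at least 513 reads each, but genes below the lowest listed mean of 20.4 CPM could not be seen.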
